A study of Mus musculus with 18 samples.

Results

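The 10 genes described here encode the enzymes that build long-chain fatty acids from acetyl-CoA and then lengthen and desaturate them: Acly, Acaca, Fasn, Me1, Elovl5, Elovl6, Scd1, Scd2, Fads1 and Fads2. They were taken by symbol from a table of 21831 genes, and 10 of 10 passed the filter on low counts that left 13409 genes for testing. Total RNA was sequenced from peritoneal macrophages of C57BL/6 mice aged 6 weeks, collected 3 days after 1 mL of 3% thioglycollate, which draws macrophages into the abdominal cavity. Plated cells had 4 h to attach and then 12 h with 20 µM PCN (pregnenolone 16alpha-carbonitrile, which binds and activates the nuclear receptor PXR of mice) or with its solvent DMSO. The 18 libraries formed 4 groups: dMye_PCN and dMye_DMSO with 6 libraries each, and FF_PCN and FF_DMSO with 3 each. The genotype called dMye lacked PXR in myeloid cells (PXRΔMyeLDLR-/-), and FF carried floxed PXR alleles (PXRF/FLDLR-/-), so that every group, controls included, also lacked the LDL receptor. The labels do not name the Cre driver, and they do not say if each library had its own animal or culture. The p-values thus reflect only library-to-library spread, part or all of which may be technical.

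Acly, the ATP citrate lyase, releases acetyl-CoA from citrate in the cytosol, Acaca carboxylates it to malonyl-CoA, and Fasn joins these units into palmitate with NADPH, part of which the malic enzyme Me1 supplies. Elovl6 lengthens saturated and monounsaturated chains and Elovl5 polyunsaturated ones, Scd1 and Scd2 place the first double bond in saturated chains, and Fads1 and Fads2 desaturate polyunsaturated fatty acids. In macrophages this pathway is known to respond to the sterol-regulated factor SREBP1c (gene Srebf1) and to the oxysterol receptor LXR (LXRα gene Nr1h3), and its products enter membrane phospholipids.

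Several facts of the whole series bear on every comparison. Library totals ran from 21993687 to 30228032 counts, and mitochondrial genes took 1.60% to 1.93% of counts in dMye_PCN, 1.66% to 2.18% in dMye_DMSO, 1.46% to 1.72% in FF_PCN and 1.81% to 2.02% in FF_DMSO. Nr1i2, the gene of PXR, had 3, 2, 1 and 2 counts over all libraries of dMye_PCN, dMye_DMSO, FF_PCN and FF_DMSO, so it could not check the genotype labels. The Y-linked gene Ddx3y lay at 0 to 0.489 CPM (counts scaled to the library total) in dMye_PCN and 0 to 0.109 CPM in dMye_DMSO, against 53.9 to 62.7 CPM in FF_PCN and 43.7 to 50.4 CPM in FF_DMSO. Sex and genotype therefore cannot be told apart in any dMye against FF value below.

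Promoter windows of 4 of the genes are shown because they stand for the range of responses: Fads2 and Me1 differed most between the genotypes among the genes with a window at hand, Fasn differed less, and Acly did not pass the test of genotype. Each runs from 250 bases before to 50 bases after a RefSeq transcription start (GRCm38.p6), 5′ to 3′ on the gene's strand, with capitals marking matches to the motifs searched on both strands.
Fads2 (chr19:10101454-10101753, minus strand): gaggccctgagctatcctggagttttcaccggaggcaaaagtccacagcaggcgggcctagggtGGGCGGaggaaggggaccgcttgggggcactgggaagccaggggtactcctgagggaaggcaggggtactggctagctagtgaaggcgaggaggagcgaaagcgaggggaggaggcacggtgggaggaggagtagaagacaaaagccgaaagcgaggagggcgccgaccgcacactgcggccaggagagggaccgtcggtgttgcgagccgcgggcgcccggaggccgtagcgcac
Me1 (chr9:86695865-86696164, minus strand): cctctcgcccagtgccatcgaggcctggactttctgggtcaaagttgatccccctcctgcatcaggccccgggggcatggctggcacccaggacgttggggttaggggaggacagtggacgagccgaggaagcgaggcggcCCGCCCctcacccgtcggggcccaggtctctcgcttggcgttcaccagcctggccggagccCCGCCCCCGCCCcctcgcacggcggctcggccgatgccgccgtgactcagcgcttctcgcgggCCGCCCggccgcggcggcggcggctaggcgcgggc
Fasn (chr11:120824498-120824797, minus strand): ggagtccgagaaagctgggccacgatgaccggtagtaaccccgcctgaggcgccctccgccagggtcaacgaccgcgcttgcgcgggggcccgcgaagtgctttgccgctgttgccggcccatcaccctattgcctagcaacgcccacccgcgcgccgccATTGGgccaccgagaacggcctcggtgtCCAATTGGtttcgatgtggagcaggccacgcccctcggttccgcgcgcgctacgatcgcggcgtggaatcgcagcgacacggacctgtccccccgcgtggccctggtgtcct
Acly (chr11:100527951-100528250, minus strand): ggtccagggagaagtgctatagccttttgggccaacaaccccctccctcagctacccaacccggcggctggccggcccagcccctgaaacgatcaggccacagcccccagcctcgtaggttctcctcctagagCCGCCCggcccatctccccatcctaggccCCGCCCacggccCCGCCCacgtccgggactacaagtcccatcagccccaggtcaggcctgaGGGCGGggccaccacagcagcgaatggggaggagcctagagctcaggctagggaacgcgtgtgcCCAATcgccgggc
The motifs were a sterol regulatory element (TCACNCCAC), the CCAAT box (CCAAT), the GC box (GGGCGG) and the E-box (CACGTG), which 1.24%, 37.4%, 35.7% and 7.15% of 32851 mouse promoter windows of the same length hold. The Fads2 window held 1 GC box, the Me1 window shown 4 GC boxes, the Fasn window 3 CCAAT boxes of which a pair overlap on opposite strands, and the Acly window 1 CCAAT box and 4 GC boxes. RefSeq lists another Me1 start (window chr9:86687228-86687527, not shown), whose window held 1 CCAAT box and 0 GC boxes. The sterol regulatory element had 0 matches in these windows, which says only that these letters are not there.

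Levels between genes were compared as CPM per kilobase of merged exons. Merged exons pool all annotated transcripts of a gene (17074 bases for Acaca), so the order of the genes depends on this choice of length. Acly, at a mean of 28.2 CPM per kilobase in dMye_PCN, 30.2 in dMye_DMSO, 26.4 in FF_PCN and 30.7 in FF_DMSO, and Elovl5, at 24.8, 24.75, 24.1 and 26.9 in the same groups, stood far above the other 8 genes. Fads1 came next at 6.36 in dMye_PCN, 6.73 in dMye_DMSO, 4.48 in FF_PCN and 4.99 in FF_DMSO. The order below it depended on genotype. In dMye_DMSO Scd2 followed at 3.55, and Fasn, Acaca, Me1 and Scd1 lay at 2.35, 2.23, 2.20 and 2.17 with overlapping library ranges. In FF_DMSO Acaca followed at 2.23 and Fasn at 1.77, with Scd2 at 1.03, Scd1 at 0.954 and Me1 at 0.909, again with overlapping ranges. Fads2 was lowest in FF_DMSO at 0.184 and FF_PCN at 0.117, and in dMye_DMSO its 0.858 overlapped the range of Elovl6 (mean 0.697).

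**Figure D1:**
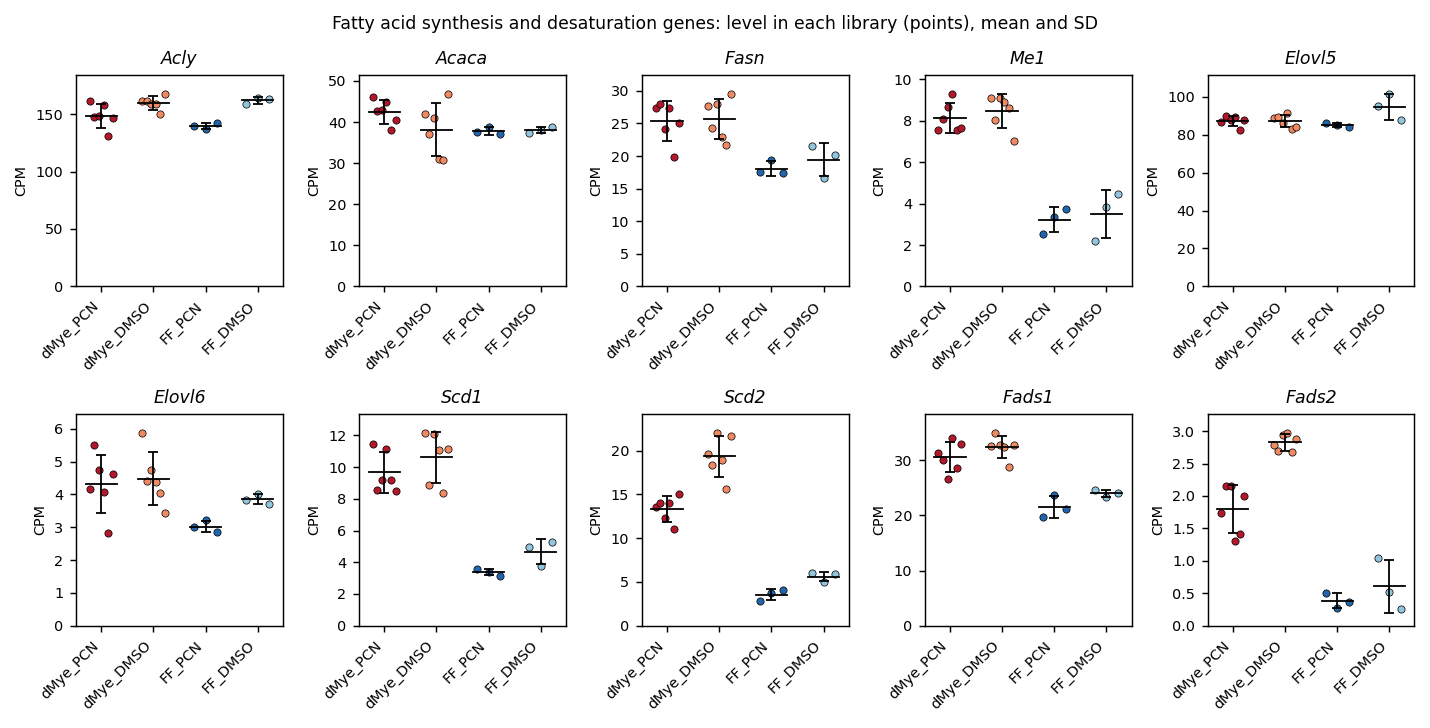
Level of each of the 10 genes in CPM (vertical axis, linear from 0) in every library of dMye_PCN, dMye_DMSO, FF_PCN and FF_DMSO. Points are libraries and bars are the mean and SD of 6, 6, 3 and 3 libraries. Scd1, Scd2, Fads1, Fads2 and Me1 lie higher in all dMye libraries than in all FF libraries, while Acaca and Acly share a range.

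With PCN, Scd2 fell in both genotypes, Acly fell slightly in FF, and no gene of the 10 was called higher. Called means a Benjamini-Hochberg adjusted p under 0.05 over all 13409 genes in edgeR's quasi-likelihood test. In dMye, 0 of the 10 were called higher with PCN (0.94% of all genes tested) and 1 was called lower (1.14%). In FF, 0 of the 10 were called higher (6.82%) and 2 were called lower (6.98%). The median log2 fold change of the 10 with PCN was -0.07 in dMye, where that of all genes was -0.01, and -0.16 in FF, where that of all genes was 0.01. In dMye the libraries of PCN and DMSO had no overlap for 2 of the 10, Scd2 and Fads2, both lower with PCN (2.33% of all genes, either direction). In FF there was none for 5 of the 10, Scd1, Scd2, Acly, Elovl5 and Elovl6, all lower with PCN (33.4%).

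Scd2, a desaturase that makes monounsaturated fatty acids, had 11.01, 13.8 and 15.0 CPM as its lowest, median and highest value in dMye_PCN, against 15.6, 19.3 and 22.01 CPM in dMye_DMSO. In FF it had 2.88, 3.71 and 4.04 CPM in the PCN libraries, against 5.98, 4.99 and 5.89 CPM in the DMSO libraries. Every PCN library lay below every DMSO library of its genotype. The log2 fold change with PCN was -0.54 (SE 0.089, edgeR adjusted p = 0.0017) in dMye and -0.64 (SE 0.15, edgeR adjusted p = 0.0057) in FF, that is 0.688 and 0.642 of the DMSO level.

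Scd1, the isoform best known from liver and adipose tissue, had 8.52, 9.19 and 11.4 CPM (lowest, median, highest) in dMye_PCN, against 8.33, 11.1 and 12.1 CPM in dMye_DMSO. Its FF libraries had 3.55, 3.38 and 3.16 CPM with PCN, against 4.96, 3.78 and 5.25 CPM with DMSO. The dMye groups overlapped and the FF groups did not. Its log2 fold change was -0.13 (SE 0.11, edgeR adjusted p = 0.58) in dMye and -0.45 (SE 0.17, edgeR adjusted p = 0.085) in FF, so that neither was called, and without FF_DMSO replicate 2 the FF value was called (adjusted p = 0.040). Scd1 made up 42.0% ± 4.05 of the summed Scd1 and Scd2 counts in dMye_PCN and 35.3% ± 2.04 in dMye_DMSO (SD, n = 6 each), and 48.9% ± 5.78 in FF_PCN and 45.2% ± 2.03 in FF_DMSO (SD, n = 3 each). The share was not tested. The isoforms share sequence: 8.18% of the 31-base words of Scd1 transcripts and 6.81% of those of Scd2 occur in transcripts of other genes, chiefly other Scd genes, so the division of reads between them is uncertain.

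Acly had 131, 148 and 161 CPM (lowest, median, highest) in dMye_PCN, against 150, 160 and 168 CPM in dMye_DMSO. It had 139.5, 137 and 142 CPM in the FF_PCN libraries, against 158, 164 and 163 CPM in the FF_DMSO libraries. The dMye groups overlapped and the FF groups did not. Its log2 fold change was -0.10 (SE 0.039, edgeR adjusted p = 0.19) in dMye and -0.19 (SE 0.056, edgeR adjusted p = 0.022) in FF, a level 0.875 of that in DMSO. The FF call was lost without FF_PCN replicate 1 or 2 or without FF_DMSO replicate 2 or 3 (adjusted p of up to 0.083).

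Fads2, which starts the desaturation of polyunsaturated fatty acids, had 1.31, 1.88 and 2.16 CPM (lowest, median, highest) in dMye_PCN, against 2.68, 2.84 and 2.97 CPM in dMye_DMSO. Its FF libraries had 0.505, 0.278 and 0.372 CPM with PCN, against 1.05, 0.513 and 0.255 CPM with DMSO. The dMye groups did not overlap, while the FF groups did, on 7 to 13 counts a library with PCN and 7 to 26 with DMSO. The log2 fold change was -0.65 (SE 0.21, edgeR adjusted p = 0.11) in dMye and -0.61 (SE 0.40, edgeR adjusted p = 0.36) in FF. In dMye it was called by DESeq2, by limma-voom and by edgeR on the dMye libraries alone (smallest adjusted p = 0.023), and in FF it was 0.02 without FF_DMSO replicate 1. 

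The other 6 genes were not called with PCN in either genotype. Elovl6 had a log2 fold change of -0.05 in dMye and -0.33 (SE 0.21, edgeR adjusted p = 0.34) in FF, where its libraries had 3.00, 3.21 and 2.85 CPM with PCN, against 3.83, 4.02 and 3.72 CPM with DMSO. Elovl5 had a log2 fold change of -0.00 in dMye and -0.13 (SE 0.058, edgeR adjusted p = 0.14) in FF, with 85.9, 85.0 and 83.9 CPM in the PCN libraries, against 94.9, 101.5 and 87.7 CPM in the DMSO libraries. For both elongases the FF groups did not overlap, and Elovl5 was called in FF without FF_DMSO replicate 3 (adjusted p = 0.045). Fads1 had values of -0.08 in dMye and -0.13 in FF, Fasn -0.02 and -0.08, and Me1 -0.06 and -0.10. Acaca was the only one of the 10 with a positive value in each genotype, 0.16 (SE 0.074, edgeR adjusted p = 0.30) in dMye and 0.01 in FF, its sign in FF turning across the alternative settings.

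The PCN effect was not shown to differ between the genotypes for any of the 10. The difference of the effects, dMye minus FF, was called for 0 of the 10 (1.42% of all genes, either direction) by edgeR, with 0 at an unadjusted p under 0.05 and 0 called by DESeq2 or limma-voom. On the log2 scale it was 0.10 (SE 0.17) for Scd2, 0.32 (SE 0.20) for Scd1, 0.09 (SE 0.068) for Acly and -0.05 (SE 0.50) for Fads2. It was positive for 9 of the 10, with a median of 0.09, against -0.01 over all genes, but these signs come from the same libraries. Across the alternative settings the sign turned for Scd2 (-0.02 to 0.22), Fasn (-0.004 to 0.16), Me1 (-0.16 to 0.28) and Fads2 (-0.67 to 0.34). It stayed positive for the others.

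**Figure D2:**
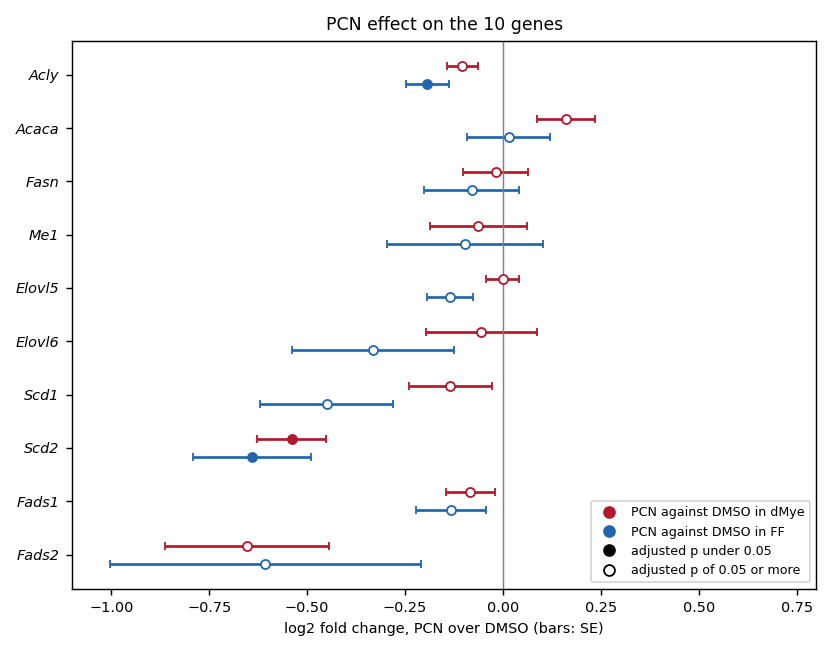
Log2 fold change, PCN over DMSO (horizontal axis), of the 10 genes in dMye and in FF, with SE bars from the edgeR fit. Filled points have an adjusted p under 0.05: Scd2 in both genotypes (-0.54 in dMye, -0.64 in FF) and Acly in FF (-0.19).

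Some markers of cell types were called lower with PCN as well. Over all genes tested, 0.94% were called higher and 1.14% lower in dMye, and 6.82% higher and 6.98% lower in FF. Of 8 macrophage markers, 0 were called higher and 1 lower in dMye, and 0 higher and 6 lower in FF, where Csf1r had a log2 fold change of -0.39 and Lyz2 of -0.68. Their summed level was 6114 to 6659 CPM in dMye_PCN and 6631 to 8287 CPM in dMye_DMSO, and 7103 to 7595 CPM in FF_PCN and 10020 to 10740 CPM in FF_DMSO. Lyz2 alone averaged 3273 CPM in dMye_PCN, 4060 in dMye_DMSO, 4392 in FF_PCN and 7141 in FF_DMSO, so these sums largely follow it. Of 6 B cell markers, 4 were called lower in FF and 0 were called in dMye, at summed levels of 5.06 to 8.53 CPM in dMye_PCN, 5.29 to 7.47 in dMye_DMSO, 7.27 to 10.96 in FF_PCN and 16.0 to 21.4 in FF_DMSO. Of 8 mesothelial markers, 0 were called in dMye, and 0 were called higher and 1 lower in FF, Wt1 at -0.65 (SE 0.14, edgeR adjusted p = 0.0035), with a median log2 fold change of -0.11 in dMye and -0.27 in FF. Their summed level in FF was 20.4 to 22.3 CPM with PCN, against 24.1 to 28.5 CPM with DMSO, without overlap. Of 6 fibroblast markers, 0 were called with PCN in either genotype, and their summed level in FF was 137 to 153 CPM with PCN, against 169 to 173 CPM with DMSO. The part of these 4 marker lists in the PCN values of the 10 genes was not tested. In bulk RNA, fewer cells of a type and less RNA per cell cannot be told apart.

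The counts of related genes called with PCN stand against 0.94% of all genes called higher and 1.14% lower in dMye, and 6.82% higher and 6.98% lower in FF. Of 12 tested genes that supply acetyl-CoA, malonyl-CoA or NADPH, 0 were called higher and 2 lower in dMye, and 0 higher and 3 lower in FF. Idh1, the cytosolic NADP isocitrate dehydrogenase, fell by 0.42 (SE 0.062, edgeR adjusted p = 0.00065) on the log2 scale in dMye and by 0.80 (SE 0.088, edgeR adjusted p = 2.4e-06) in FF. Pgd of the pentose phosphate pathway fell by 0.24 in dMye and by 0.45 in FF, and G6pdx, the first enzyme of that pathway, fell by 0.43 in FF. Of 8 other genes of the elongation cycle, 0 were called higher and 1 lower in dMye, and 0 higher and 3 lower in FF. Hacd4 fell by 0.25 in dMye and by 0.46 in FF, and Tecr and Hacd2 fell by 0.38 and 0.32 in FF. Of 8 other desaturases and electron donors, 0 were called in dMye, and 0 were higher and 2 lower in FF, Degs1 at -0.20 and Cyb5b at -0.18. Of 6 acyl-CoA synthetases and acyltransferases, 0 were called in dMye, and in FF Acsl4 rose (0.21) and Acsl5 fell (-0.21).

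Of 13 tested genes that control lipogenesis, 0 were called higher (0.94% of all genes tested) and 1 lower (1.14%) with PCN in dMye. In FF, 2 of the 13 were called higher (6.82%) and 1 lower (6.98%). Insig1, which retains SREBP in the endoplasmic reticulum and is itself an SREBP target, fell by 0.46 (SE 0.064, edgeR adjusted p = 0.00032) in dMye, and its value in FF was -0.18 (SE 0.092, edgeR adjusted p = 0.21). Nr1h3 fell by 0.36 (SE 0.090, edgeR adjusted p = 0.0094) in FF and had -0.15 (adjusted p = 0.27, edgeR) in dMye, while Pparg and Mlx rose in FF by 0.26 and 0.28. Srebf1 had a log2 fold change of -0.03 in dMye and 0.11 in FF, neither called. The difference of the PCN effects was called for 0 genes in each of the 5 lists of related genes, against 1.42% of all genes tested, either direction. With so few genes called, lists of this size cannot show that the effects were alike.

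**Figure D3:**
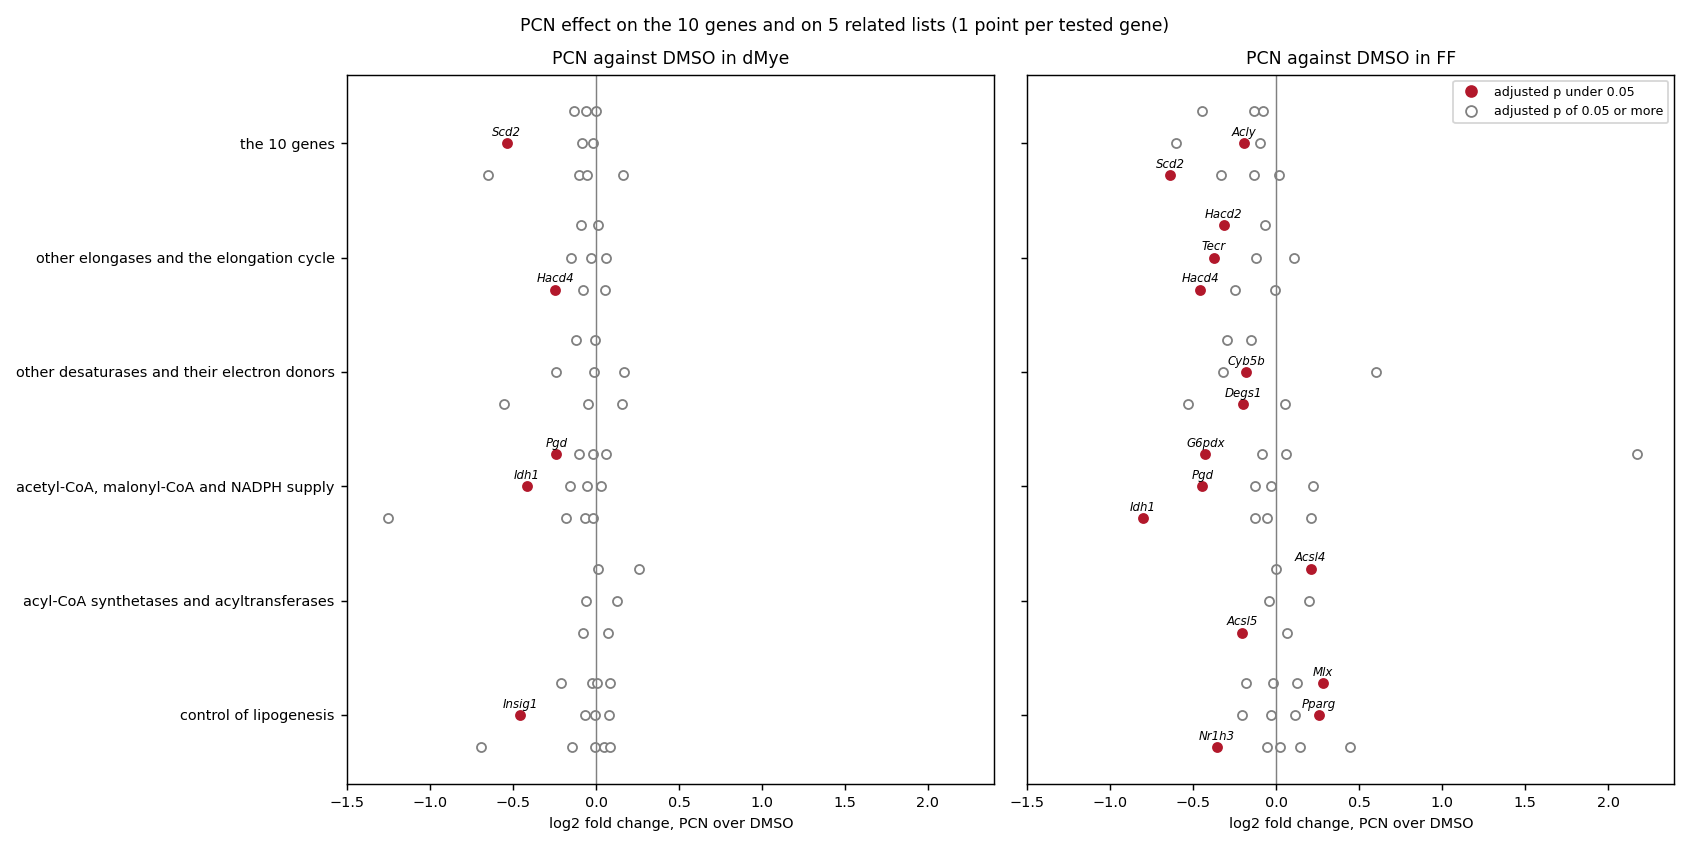
Log2 fold change, PCN over DMSO (horizontal axis), of every tested gene among the 10 and in 5 lists of related genes, in dMye (left) and FF (right). Filled, named points have an adjusted p under 0.05; Acacb, at 17, 42, 26 and 6 counts summed over dMye_PCN, dMye_DMSO, FF_PCN and FF_DMSO, gives the open points farthest from 0.

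Between the genotypes, 6 genes, among them all 4 desaturases, were higher in dMye under either agent. Under PCN, 6 of the 10 genes were called higher in dMye than in FF (16.2% of all genes tested) and 0 were called lower (11.4%). Under DMSO, 6 of the 10 were called higher in dMye (13.9%) and 1 was called lower (7.85%). The 6 were Scd1, Scd2, Fasn, Fads1, Fads2 and Me1 under both agents, and the libraries of the genotypes did not overlap for these 6 of 10 under PCN (26.7% of all genes, either direction) or under DMSO (23.6%). The median log2 fold change of the 10, dMye over FF, was 0.46 under PCN and 0.39 under DMSO, against 0.00 and 0.02 over all genes.

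Fads2, Scd2, Scd1 and Me1 had the largest fold changes of the 10. Fads2 was 4.46 times as high in dMye as in FF under PCN (log2 2.16, SE 0.33, edgeR adjusted p = 3.0e-05) and 4.61 times under DMSO (log2 2.20, SE 0.30, edgeR adjusted p = 9.2e-06). Without FF_DMSO replicate 1 the log2 value under DMSO was 2.82. Scd2 was 3.63 times as high under PCN (log2 1.86, SE 0.13, edgeR adjusted p = 3e-10) and 3.38 times under DMSO (log2 1.76, SE 0.12, edgeR adjusted p = 2.7e-10). Scd1 had a log2 fold change of 1.47 (SE 0.15, edgeR adjusted p = 9.0e-08) under PCN and 1.16 (SE 0.14, edgeR adjusted p = 1.7e-06) under DMSO. Each of these 3 had its lowest dMye library above its highest FF library. Me1 had 7.54, 7.87 and 9.31 CPM (lowest, median, highest) in dMye_PCN, against 2.55, 3.35 and 3.76 CPM in FF_PCN. It had 7.01, 8.78 and 9.12 CPM in dMye_DMSO, against 2.22, 3.83 and 4.44 CPM in FF_DMSO. It was thus 2.43 times as high in dMye under PCN and 2.38 times under DMSO (edgeR adjusted p = 5.2e-06 and 6.9e-06). Of its 31-base words, 36.9% occur in transcripts of other genes, chiefly the annotated Gm7049 and Gm48795, and an antisense gene overlaps it, so its level is uncertain.

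Fads1 and Fasn differed less. Fads1 had 26.7, 30.7 and 34.1 CPM in dMye_PCN, against 19.7, 23.8 and 21.2 CPM in FF_PCN. It had 28.8, 32.7 and 34.9 CPM in dMye_DMSO, against 24.7, 23.3 and 24.0 CPM in FF_DMSO. These are folds of 1.37 under PCN (edgeR adjusted p = 0.00012) and 1.33 under DMSO (edgeR adjusted p = 0.00046). Fasn had 19.8, 26.2 and 28.05 CPM in dMye_PCN, against 17.5, 19.4 and 17.4 CPM in FF_PCN. It had 21.7, 25.95 and 29.5 CPM in dMye_DMSO, against 21.5, 16.6 and 20.2 CPM in FF_DMSO. Its folds were 1.35 (edgeR adjusted p = 0.0035) under PCN and 1.30 (edgeR adjusted p = 0.012) under DMSO, the DMSO call being lost without FF_DMSO replicate 2 (adjusted p = 0.118).

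The other 4 genes, Acly, Acaca, Elovl5 and Elovl6, were not called higher in dMye in the fit of all 18 libraries. Acly had log2 fold changes of 0.04 under PCN and -0.05 under DMSO, and Acaca 0.12 and -0.03. Acaca ran from 38.0 to 46.0 CPM in dMye_PCN, 30.7 to 46.9 in dMye_DMSO, 37.0 to 38.9 in FF_PCN and 37.3 to 38.8 in FF_DMSO, and 33.5% of its 31-base words occur in other transcripts, chiefly Gm5182. Genes on the opposite strand overlap Acaca and Elovl6, so both levels are uncertain. Elovl6 had 0.47 (SE 0.18, edgeR adjusted p = 0.058) under PCN and 0.19 under DMSO. Under PCN it was called higher in 4 of 25 alternatives (smallest adjusted p = 0.013): upper-quartile scaling, and fits without dMye_DMSO replicate 1 or 6 or without dMye_PCN replicate 5. Elovl5 had -0.01 under PCN and -0.14 (SE 0.050, edgeR adjusted p = 0.042) under DMSO, where the libraries overlapped and the call was lost in 6 of 25 alternatives. Those 6 were edgeR on the compared libraries alone, upper-quartile scaling, and fits without FF_DMSO replicate 1 or 2 or without dMye_PCN replicate 3 or 6 (adjusted p of up to 0.30).

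Position along the genome was partly shared. Scd1 (chr19:44394455-44407879, GRCm38) and Scd2 (chr19:44293674-44306864) lie in the Scd cluster, whose other genes were low: Scd3 averaged 0.457 CPM in dMye_PCN, 0.545 in dMye_DMSO, 0.532 in FF_PCN and 0.785 in FF_DMSO, and was not called in any contrast. Fads1 (chr19:10182888-10196877) and Fads2 (chr19:10062765-10101746) lie beside Fads3, which ran from 8.49 to 10.8 CPM in dMye_PCN, 7.93 to 9.95 in dMye_DMSO, 2.95 to 3.33 in FF_PCN and 2.11 to 3.52 in FF_DMSO. Fads3 was higher in dMye under PCN (log2 1.58, SE 0.14, edgeR adjusted p = 1.7e-08) and under DMSO (log2 1.46, SE 0.14, edgeR adjusted p = 5.6e-08).

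Mesothelial and fibroblast markers differed between the genotypes in the same direction. Over all genes tested, 16.2% were called higher and 11.4% lower in dMye under PCN, and 13.9% higher and 7.85% lower under DMSO. All 8 mesothelial markers were called higher in dMye under both agents, with a median log2 fold change of 2.60 under PCN and 2.57 under DMSO, and summed levels of 123 to 150.5 CPM in dMye_PCN, 146 to 158 in dMye_DMSO, 20.4 to 22.3 in FF_PCN and 24.1 to 28.5 in FF_DMSO. All 6 fibroblast markers were called higher too, with medians of 1.98 and 1.87 and summed levels of 557 to 646.5, 537 to 713, 137 to 153 and 169 to 173 CPM in the same groups. Of 8 macrophage markers, 6 were called higher and 1 lower in dMye under PCN, and 2 higher and 2 lower under DMSO. Of 6 B cell markers, 0 were called higher and 2 lower in dMye under PCN, and 0 higher and 5 lower under DMSO. Markers of adipocytes, cells that also make these enzymes, summed to 0.631 CPM or less in every library, 0 of the 6 passed the filter, and Cidec was at 0 throughout. The part of the mesothelial and fibroblast markers in the genotype differences of Scd1, Scd2, Fads1, Fads2, Fasn and Me1 was not tested.

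**Figure D4:**
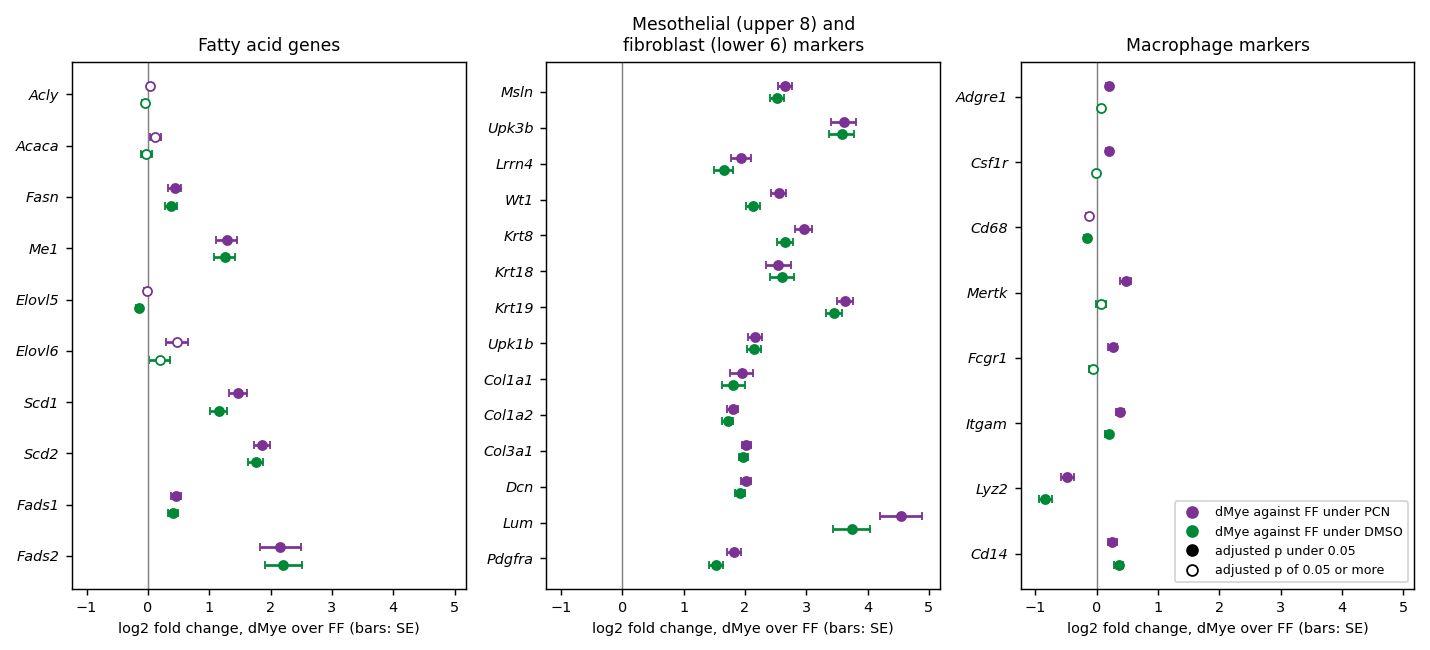
Log2 fold change, dMye over FF (horizontal axis), under PCN and under DMSO, of the 10 genes (left), of 8 mesothelial and 6 fibroblast markers (middle) and of 8 macrophage markers (right), with SE bars from the edgeR fit and filled points at an adjusted p under 0.05. The mesothelial and fibroblast markers are all higher in dMye, Fads2 and Scd2 reach 2.20 and 1.86, and Acly and Acaca lie near 0.

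The counts of related genes called between the genotypes stand against 16.2% of all genes called higher and 11.4% lower under PCN, and 13.9% higher and 7.85% lower under DMSO. Of the genes of the elongation cycle, 5 of 8 were called higher and 0 lower in dMye under PCN, and 1 and 0 under DMSO. Of the other desaturases and electron donors, 4 of 8 were called higher and 0 lower under PCN, and 2 and 0 under DMSO, Fads3 and Cyb5a among them. Of the supply genes, 3 of 12 were called higher and 0 lower under PCN (Idh1 0.48, G6pdx 0.27 and Me2 0.27), and 1 and 0 under DMSO (Me2 0.23). Of the acyl-CoA synthetases and acyltransferases, 1 of 6 was called higher and 3 lower under PCN, and 0 and 2 under DMSO, where Acsl1 had -0.25 and Lpcat3 -0.24. Of the control genes, 1 of 13 was called higher and 3 lower under PCN, and 1 and 0 under DMSO. Insig1 was higher in dMye under PCN (0.22, SE 0.080, edgeR adjusted p = 0.042) and under DMSO (0.50, SE 0.080, edgeR adjusted p = 6.1e-05), and Srebf1 was lower under PCN (-0.19, SE 0.061, edgeR adjusted p = 0.023) with -0.05 under DMSO.

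Fads2 and Scd2 had the widest range of group means among the 10, 2.64 and 2.38 on the log2 scale. By root mean square difference of centred log2 CPM over the 18 libraries, the genes outside the 10 most like Fads2 were C2 (0.332), Afap1l2 (0.341) and Fermt2 (0.355). With PCN their log2 fold changes were -0.05, -0.30 and -0.12 in dMye, against -0.65 for Fads2, and -0.55, -0.24 and -0.49 in FF, against -0.61. Those most like Scd2 were Cd248 (0.227), Plk1 (0.2415) and Tspan9 (0.243). With PCN they had -0.25, -0.22 and -0.20 in dMye, against -0.54 for Scd2, and -0.47, -0.52 and -0.66 in FF, against -0.64.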

How the data were processed

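For 18 libraries the authors deposited expected counts, which are estimated numbers of reads for each gene and often fractional. Per the submitters' processing notes the genome build was mm10. How reads were aligned, quantified, annotated and stranded was not given in the sources used here, so genes with near-identical copies or antisense partners are uncertain. Groups came from the genotype and agent labels. Replicate numbers follow accession order, name libraries and pair nothing.

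Expected counts were rounded to whole numbers. Of 21831 genes, 3171 were at 0 throughout, and filterByExpr (minimum count 10) kept 13409. A single edgeR 4.0.16 quasi-likelihood fit (robust, TMM, R 4.3.3) held the 4 groups with no covariate. Its contrasts were PCN against DMSO in each genotype, the difference of these effects, and dMye against FF under each agent. SE is the log2 fold change's size divided by the square root of F, and the biological coefficient of variation was 9.69%. CPM used unscaled totals. A count of 3 equals 0.0992 to 0.136 CPM, a floor that covers counting error only. Coordinates and merged exon lengths came from GENCODE M21 (GRCm38).

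The 10 genes, the lists of related genes and the marker lists (macrophage, adipocyte, mesothelial, fibroblast, B cell, T cell, neutrophil, eosinophil and mast cell) were chosen with earlier results of these data known. Named were the 10 genes, up to 3 called genes of smallest p per other list and contrast, the 3 genes most like each of the 2 of widest range, and Srebf1, Insig1, Nr1h3, Mlxipl, Ddx3y and Nr1i2. Outside this rule, Scd3, Cidec and Acacb were named after their values were seen. Alternatives were DESeq2 1.42.0, limma-voom (limma 3.58.1), scaling by RLE or by upper quartile, a stricter low-count filter or none, the compared libraries alone, and each library left out.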

Additional observations from a re-analysis of the deposited data

How the results depend on the processing

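Scd2 was called lower with PCN in 25 of 25 alternatives in each genotype, with adjusted p of up to 0.0082 in dMye and 0.048 in FF. Scd1, Scd2, Fads1, Fads2 and Me1 were called higher in dMye in 25 of 25 alternatives under each agent. Of the called results named here, none changed sign in the alternatives run. With PCN in dMye, 279 of 13409 genes tested were called. Leaving a library out gave 137 of 13400 (without dMye_PCN replicate 3) to 371 of 13391 (without dMye_PCN replicate 5). DESeq2 called 584 of 10808, limma-voom 286 of 13409, and edgeR on the dMye libraries alone 144 of 12678. Among the 10 genes, 2 were called there by DESeq2, by limma-voom and on the dMye libraries alone. With PCN in FF, 1851 of 13409 genes tested were called, against 2340 of 12300 on the FF libraries alone. Leaving a library out gave 1202 of 13650 (without FF_DMSO replicate 1) to 2175 of 13396 (without dMye_DMSO replicate 5). In those leave-one-out fits 1 to 2 of the 10 were called. The difference of the effects was called for 190 genes, against 426 by DESeq2 and 42 (without FF_DMSO replicate 1) to 261 (without dMye_DMSO replicate 5). Upper-quartile scaling moved the called genes, higher and lower, to 85 and 187 from 126 and 153 for PCN in dMye, to 704 and 1140 from 915 and 936 for PCN in FF, to 2528 and 852 from 2176 and 1526 for genotype under PCN, and to 2117 and 669 from 1869 and 1052 under DMSO. The cause was not tested. No paired analysis was possible because the labels give the libraries no shared replicate numbers. Depth limits Fads2 in FF, at 7 to 26 counts a library.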

Other observations

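Markers of the remaining cell types summed to at most 39.9 CPM in any library. Their counts of called genes stand against the shares of all genes given above. T cell markers summed to 2.74 to 4.07 CPM in dMye_PCN, 2.06 to 3.70 in dMye_DMSO, 4.66 to 5.57 in FF_PCN and 4.98 to 6.92 in FF_DMSO, and 2 of 6 under PCN and 4 of 6 under DMSO were called lower in dMye. Neutrophil markers summed to 16.0 to 19.6, 19.9 to 22.3, 25.9 to 28.3 and 36.0 to 39.9 CPM in the same groups, with 1 of 5 tested called lower in dMye under PCN, 2 under DMSO, and 1, Mmp8, called lower with PCN in FF. Mmp8 alone averaged 10.3 CPM in dMye_PCN, 11.96 in dMye_DMSO, 18.3 in FF_PCN and 30.1 in FF_DMSO, so the neutrophil sums rest largely on it. For Mmp8 the difference of the PCN effects, dMye minus FF, was also called (log2 0.48, SE 0.12, edgeR adjusted p = 0.047). Eosinophil markers summed to under 1 CPM in every library, and 0 of 1 tested was called. Mast cell markers summed to 6.51 to 11.9 CPM in dMye_PCN, 7.83 to 10.4 in dMye_DMSO, 4.23 to 7.55 in FF_PCN and 6.57 to 8.74 in FF_DMSO, and 1 of 4, Cpa3, was called higher in dMye under PCN.

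Mlxipl, the gene of the glucose-responsive lipogenic factor ChREBP, was not called in any contrast.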
